A study of Ovis aries with 12 samples.

Results

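The 4 entries described here, gga-miR-1692, ssc-miR-1285, hsa-miR-1303 and bta-miR-2340, are rows of a sheep small RNA count table that carry miRNA names of chicken, pig, human and cow. They were chosen by name out of 470 entries because earlier results of the same libraries had shown them high in PPHN 8, PPHN 11 and PPHN 12. Their levels and their difference between PPHN and control are therefore given as a description, without a test. The cells were pulmonary artery endothelial cells from fetal lambs, isolated by collagenase digestion of the main pulmonary artery, purified with CD31 antibody beads and grown for 2 to 5 passages. In the 6 PPHN libraries, numbered 7 to 12, the ductus arteriosus had been ligated in utero for 5 to 7 days, which models persistent pulmonary hypertension of the newborn (PPHN). The 6 control libraries, numbered 1 to 6, came from lambs with sham surgery. The labels give no strain, sex or animal number and do not tell which libraries, if any, share a lamb, so the spread between libraries may be partly technical.

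A miRNA is a short RNA cut from a hairpin precursor that guides Argonaute proteins to messenger RNAs. A table of reads matched to miRNA names can also collect pieces of other RNAs, because some registered miRNAs have the sequence of a repeat or of a structural RNA. In human, miR-1285, miR-1303 and miR-1273g are known to lie in Alu-type repeats, a primate repeat family that descends from the 7SL RNA of the signal recognition particle. The name miR-7641 is likewise known for its match to 5S ribosomal RNA. No role is stated here for gga-miR-1692 or bta-miR-2340. No sequence is printed, because the count table pairs its names with none and no sequence was used here.

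None of the 4 entries carried a sheep name, while 92 of the 468 tested entries, or 19.7%, did. Of the 4, 3 had a single name, as did 321 of all tested entries (68.6%). The remaining one, hsa-miR-1303, joined the human and chimpanzee names of the same miRNA. For the sheep assembly ARS-UI_Ramb_v3.0, RefSeq's table lists 106 miRNA genes, and 0 of the 4 names matched one of them. The share of all tested entries that match was not computed, so nothing particular to the 4 is read from this. A second miR-1285 entry, cgr-miR-1285, has a hamster name and is not 1 of the 4. Reads of near-identical entries may have been split or counted more than once, so the level of ssc-miR-1285 is uncertain to that extent. Its counts were not a fixed multiple of those of cgr-miR-1285, since their ratio lay between 0.994 and 3.07 over the 12 libraries.

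Total counts over all listed entries ranged from 2250077 to 17740932 in PPHN and from 4101316 to 11171643 in control. Levels are CPM, counts of an entry relative to all listed counts of its library, after TMM scaling. The counts of gga-miR-1692, ssc-miR-1285 and hsa-miR-1303 lay between 127 and 1371 per library. Those of bta-miR-2340 lay between 8682 and 234358. The floor of 3 counts lay between 0.169 and 1.33 CPM before scaling, far below every value of the 4. For the highest value of gga-miR-1692, 695 counts in PPHN 11, the level was 309 CPM before scaling (exact Clopper-Pearson 95% interval 286 to 333). Such intervals and floors cover counting error only.

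The chicken-named entry gga-miR-1692 stood at 35.4, 257, 43.4, 44.1, 281 and 188 CPM in PPHN 7 to 12, and at 32.8, 45.6, 34.0, 30.4, 38.7 and 50.4 CPM in control 1 to 6. PPHN 8, PPHN 11 and PPHN 12 were high, and PPHN 7, PPHN 9 and PPHN 10 lay inside the range of the controls. The lowest of the 3 high libraries was 3.73-fold above the next library, control 6. The entry averaged 141 ± 114 CPM (SD) over the 6 PPHN libraries and 38.6 ± 7.89 CPM over the 6 controls, a log2 fold change of 1.87 (SE 0.55).

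The pig-named entry ssc-miR-1285 stood at 45.4, 245, 36.6, 27.7, 169 and 161 CPM in PPHN 7 to 12, and at 27.0, 33.6, 41.6, 30.6, 43.7 and 46.1 CPM in control 1 to 6. The same 3 PPHN libraries were high, 3.49-fold or more above every other library, and the remaining PPHN libraries lay within the control range. It averaged 114 ± 90.1 CPM (SD) over the 6 PPHN libraries and 37.1 ± 7.77 CPM over the 6 controls, a log2 fold change of 1.62 (SE 0.53).

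The human-named entry hsa-miR-1303 stood at 83.2, 325, 50.8, 49.4, 254 and 153 CPM in PPHN 7 to 12, and at 57.1, 76.4, 53.0, 29.4, 53.9 and 55.5 CPM in control 1 to 6. Its step was smaller: PPHN 12 was 1.84-fold above PPHN 7, the next library, which itself lay just above the highest control. The entry averaged 152 ± 115 CPM (SD) over the 6 PPHN libraries and 54.2 ± 15.0 CPM over the 6 controls, a log2 fold change of 1.49 (SE 0.49).

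The cow-named entry bta-miR-2340 was far more abundant, the 15th of the 468 entries by mean CPM. It stood at 3989, 51855, 3321, 1636, 94769 and 12985 CPM in PPHN 7 to 12, and at 2468, 6626, 2307, 1514, 4186 and 5942 CPM in control 1 to 6. The 3 high libraries were unequal here: PPHN 11 was 28.5-fold, PPHN 8 15.6-fold and PPHN 12 3.90-fold above the control median, and PPHN 12 was 1.96-fold above control 2, the next library. The entry held 10.4% of all listed counts in PPHN 11 (exact 95% interval 10.4 to 10.5%) and 5.85% in PPHN 8 (5.82 to 5.88%), where it ranked 4th and 5th. In the controls its share lay between 0.168 and 0.819%, and its rank between 18 and 54. Means were 28092 ± 37771 CPM (SD) over the 6 PPHN libraries and 3840 ± 2095 CPM over the 6 controls, a log2 fold change of 2.87 (SE 0.95).

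**Figure D1:**
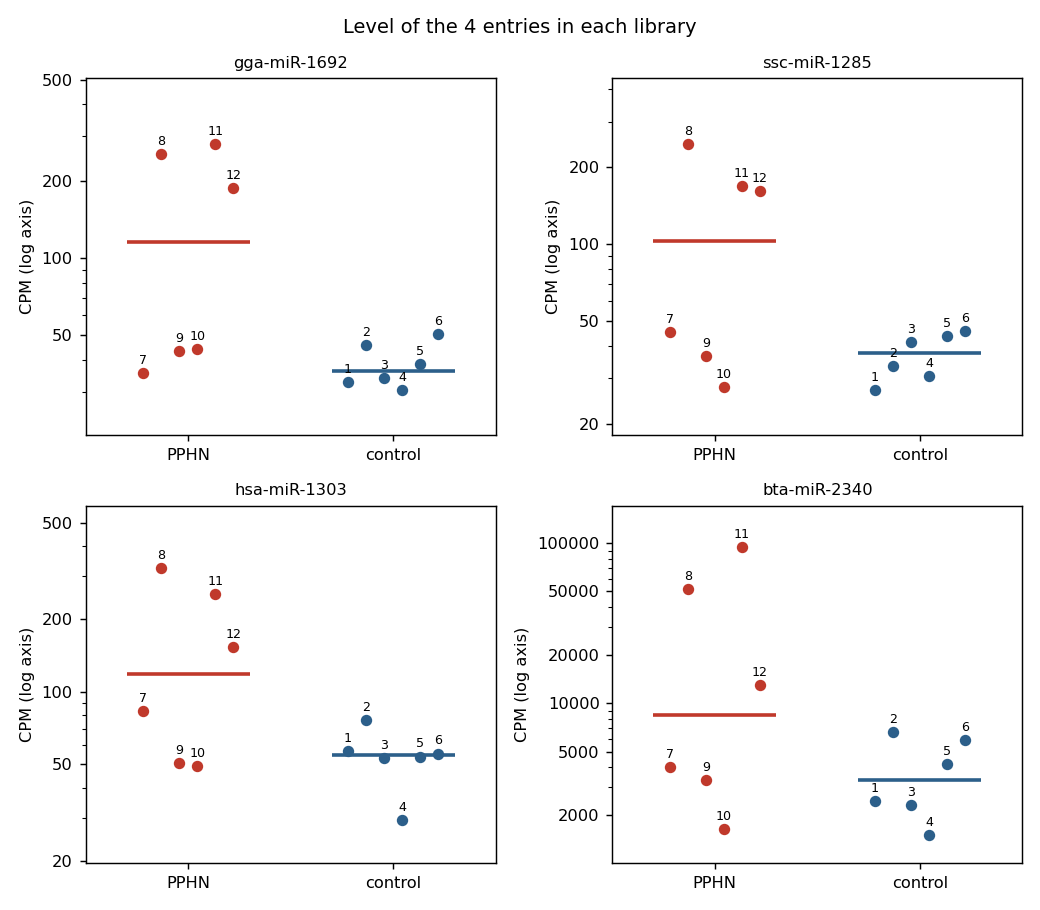
Level of each of the 4 entries in CPM on a log axis, with 1 point per library, its number beside it and the group median as a line. PPHN 8, PPHN 11 and PPHN 12 stand above all other libraries in every panel, and the other PPHN libraries lie among the controls, except that hsa-miR-1303 in PPHN 7 (83.2 CPM) is above the highest control (76.4 CPM).

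In every one of the 4 entries PPHN 12 was the lowest of the 3 high libraries. PPHN 11 was highest for gga-miR-1692 and bta-miR-2340, and PPHN 8 for ssc-miR-1285 and hsa-miR-1303. The ratio of gga-miR-1692 to ssc-miR-1285 counts was 1.05 to 1.67 in PPHN 8, PPHN 11 and PPHN 12 and 0.778 to 1.59 in the other 9 libraries, so the ranges overlapped widely. The ratio of bta-miR-2340 to gga-miR-1692 counts was 69.1 to 337 in the 3 high libraries and 37.1 to 145 in the others, and that of bta-miR-2340 to ssc-miR-1285 counts was 80.9 to 562 and 49.5 to 197. The cow-named entry therefore moved over a wider range than the other 3.

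With edgeR's quasi-likelihood test and Benjamini-Hochberg adjustment, 0 of 468 entries passed an adjusted p of 0.05 between PPHN and control (0%), and so 0 of the 4. Without adjustment, 49 entries had a p under 0.05, of which 23 (4.91%) were higher in PPHN, and the 4 were among these. DESeq2 called 12 entries, 7 of them higher in PPHN (1.50%), and 2 of the 4 were among its calls. The rule that chose the 4 used this contrast, so nothing is read from these counts. The groups overlapped for each of the 4, while 6 of the 468 entries (1.28%) had groups that did not overlap, 3 of them (0.641%) with every PPHN library above every control. The median log2 fold change was 1.74 over the 4 and -0.08 over all tested entries. In the authors' deposited table, the log2 fold changes of the edgeR columns were 1.87 for gga-miR-1692, 1.62 for ssc-miR-1285, 1.49 for hsa-miR-1303 and 2.86 for bta-miR-2340.

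The log2 fold change of bta-miR-2340 was 1.93 without PPHN 11. With the libraries with little miR-126 (control 2, PPHN 8 and PPHN 11) left out, log2 fold changes were 1.02 for gga-miR-1692, 0.80 for ssc-miR-1285, 0.71 for hsa-miR-1303 and 0.71 for bta-miR-2340. PPHN 12 is then the 1 high library left.

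The spread of the 4 entries differed between the groups. The SD of log2 CPM of gga-miR-1692 was 1.41 in PPHN and 0.28 in control. For ssc-miR-1285 it was 1.34 in PPHN and 0.31 in control, and for hsa-miR-1303 it was 1.16 in PPHN and 0.45 in control. These 3 entries had control spreads below the median of all entries, which was 0.71 (0.66 in PPHN), and gga-miR-1692 had the 42nd lowest of the 468. In PPHN their spreads ranked only 127th, 131st and 150th highest, in the order given. The entry bta-miR-2340 was less even, with an SD of 2.34 in PPHN, the 27th highest, and 0.84 in control, above the median.

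**Figure D2:**
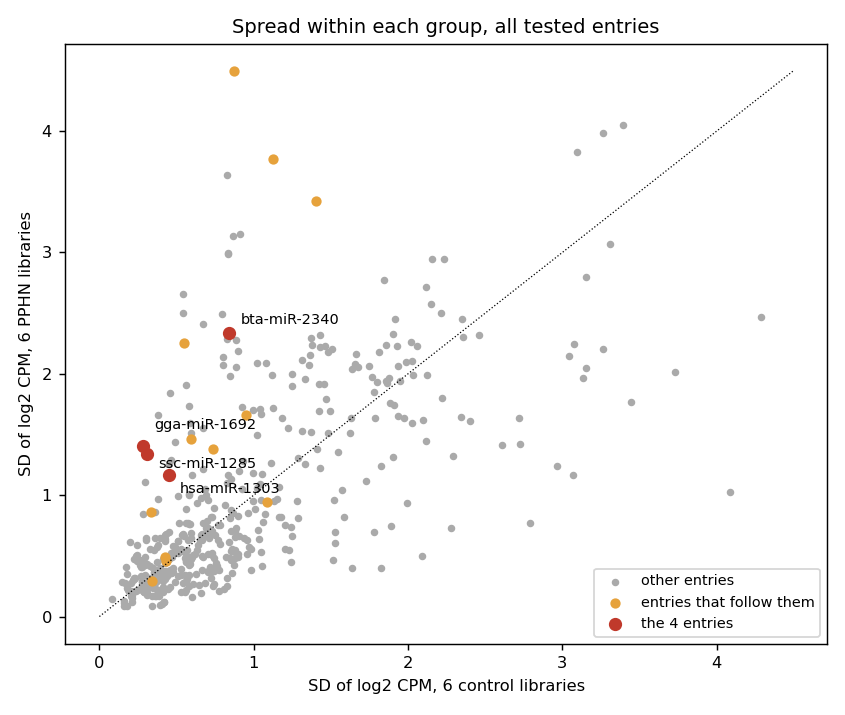
SD of log2 CPM over the 6 control libraries (horizontal) and over the 6 PPHN libraries (vertical) for each tested entry, with equality as the dotted line. The 4 entries, in red, lie above the line, from 0.28 to 0.84 in control and from 1.16 to 2.34 in PPHN. Orange points are the 12 other entries whose 3 highest libraries are the same.

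Whether the 4 entries moved together was tested inside the control group, since the 3 high libraries form a cluster of their own and a correlation over all 12 libraries would only restate it. Over the 6 controls, gga-miR-1692 and bta-miR-2340 had a Pearson r of 0.95 on the log2 CPM scale (exact two-sided permutation p = 0.00694, adjusted p = 0.0417 over the 6 pairs of entries). Spearman's rho of this pair was 0.89 (exact permutation p = 0.0333, adjusted p = 0.175). Control 2 and control 6 had the 2 highest and control 4 the lowest values of both entries. Without the 2 controls farthest from the median of gga-miR-1692, r was 0.97 over 4 libraries (exact permutation p = 0.0833, adjusted p = 0.5). The pair hsa-miR-1303 and bta-miR-2340 had an r of 0.79 (exact permutation p = 0.0208, adjusted p = 0.0625) and a rho of 0.83 (p = 0.0583, adjusted p = 0.175), and its r was 0.07 without the 2 controls farthest from the median of hsa-miR-1303. It therefore rested on those libraries.

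The other 4 pairs did not pass. The r values were 0.57 for gga-miR-1692 with ssc-miR-1285, 0.64 for gga-miR-1692 with hsa-miR-1303, 0.48 for ssc-miR-1285 with bta-miR-2340 and 0.19 for ssc-miR-1285 with hsa-miR-1303, with exact permutation p-values from 0.151 to 0.781 and adjusted p-values from 0.303 to 0.781. Their rho values were 0.77, 0.54, 0.43 and -0.09 in the same order, with exact permutation p-values from 0.103 to 0.919 and adjusted p-values from 0.206 to 0.919. Over the 9 libraries other than PPHN 8, PPHN 11 and PPHN 12, all 6 r values were positive, from 0.23 to 0.70, and none passed (lowest exact permutation adjusted p = 0.158). There the pair gga-miR-1692 and bta-miR-2340 had an r of 0.62 (exact permutation p = 0.0811, adjusted p = 0.188). With library totals in place of TMM scaling, its r over the controls was 0.95 with an adjusted exact permutation p of 0.0750. The r values of the other pairs were higher with library totals than with TMM: 0.86 for hsa-miR-1303 with bta-miR-2340, 0.77 for gga-miR-1692 with hsa-miR-1303, 0.75 for gga-miR-1692 with ssc-miR-1285, 0.69 for ssc-miR-1285 with bta-miR-2340 and 0.46 for ssc-miR-1285 with hsa-miR-1303, and none passed (lowest adjusted exact permutation p = 0.0750). These values share the scaling of each library, so part of any covariation may come from it, which was not tested.

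**Figure D3:**
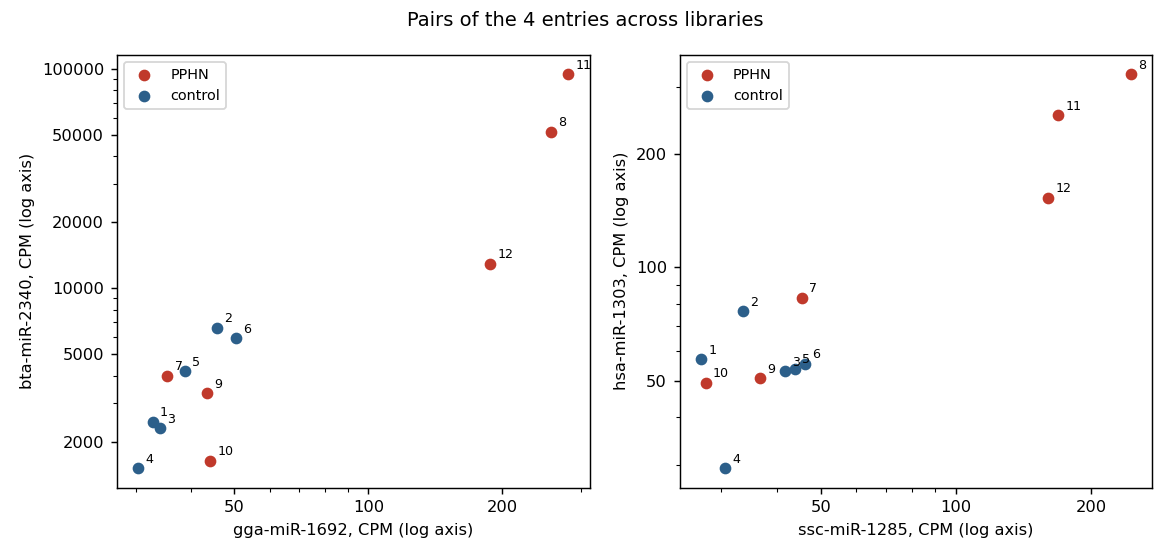
Levels of gga-miR-1692 against bta-miR-2340 (left) and of ssc-miR-1285 against hsa-miR-1303 (right) in CPM on log axes, with 1 numbered point per library. PPHN 8, PPHN 11 and PPHN 12 form a group apart in both panels. The 6 controls lie along a line on the left (r = 0.95) and are scattered on the right (r = 0.19).

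To find entries with a like profile, log2 CPM values were centred on the mean of each entry, and the root mean square difference from the mean profile of the 4 was taken over the 12 libraries. This difference was 0.26 for gga-miR-1692, 0.33 for ssc-miR-1285, 0.34 for hsa-miR-1303 and 0.66 for bta-miR-2340. Over the 464 other entries its median was 1.45. The 5 nearest entries were cgr-miR-1285 (0.42), hsa-miR-7641 (0.50), hsa-miR-4448 (0.56), hsa-miR-1273g-3p (0.58) and hcmv-miR-US25-1-3p (0.66), and none of them carried a sheep name. The last is named after a miRNA of human cytomegalovirus. Taken singly, gga-miR-1692 and ssc-miR-1285 were each the nearest entry of the other, cgr-miR-1285 was nearest to hsa-miR-1303, and hsa-miR-4448 was nearest to bta-miR-2340. Seen from ssc-miR-1285 or hsa-miR-1303, bta-miR-2340 ranked only 47th.

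The hamster-named entry cgr-miR-1285 stood at 15.9, 90.5, 12.3, 13.2, 103 and 70.2 CPM in PPHN 7 to 12, and between 9.95 and 33.8 CPM in control. It thus had the same 3 high libraries as its pig-named counterpart. The entry hsa-miR-1273g-3p stood at 28.6, 227, 19.2, 18.8, 78.4 and 50.4 CPM in PPHN 7 to 12, and between 10.9 and 38.1 CPM in control. Here PPHN 8 stood well above PPHN 11 and PPHN 12. The entry hsa-miR-7641 stood at 9.16, 87.5, 6.40, 9.05, 55.4 and 60.5 CPM in PPHN 7 to 12, and between 2.91 and 17.7 CPM in control.

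The entry hsa-miR-4448 stood at 67.3, 815, 65.6, 38.1, 1569 and 519 CPM in PPHN 7 to 12, and between 47.4 and 136 CPM in control. Its order of libraries at the top, PPHN 11, PPHN 8 and PPHN 12, was that of bta-miR-2340. The entry hcmv-miR-US25-1-3p was low, with 21 to 86 counts per library, at 10.9 to 20.0 CPM in the 3 high libraries and 3.96 to 7.79 CPM in the other 9.

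The 5 nearest entries were picked for their likeness over all 12 libraries, so their correlation with the mean log2 CPM of the 4 is given as a description, with no test. Over the 6 controls, Pearson's r was 0.91 for hsa-miR-7641, 0.77 for hcmv-miR-US25-1-3p, 0.71 for hsa-miR-4448, 0.59 for cgr-miR-1285 and 0.52 for hsa-miR-1273g-3p. Without the 2 controls farthest from the median of that mean, r was 0.92, 0.71 and 0.76 for the first 3, but -0.73 for cgr-miR-1285 and -0.31 for hsa-miR-1273g-3p, whose positive values rested on those 2 controls. Over the 9 libraries other than PPHN 8, PPHN 11 and PPHN 12, r was 0.80 for hsa-miR-7641, 0.75 for hcmv-miR-US25-1-3p, 0.59 for hsa-miR-4448, 0.55 for hsa-miR-1273g-3p and 0.53 for cgr-miR-1285. Without the 2 farthest of these libraries, r was 0.64, 0.71, 0.49, 0.01 and -0.15 in the same order.

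PPHN 8, PPHN 11 and PPHN 12 were the 3 highest libraries for 16 of the 468 entries (3.42%), the 4 and 12 others. This set of libraries is not the commonest: control 3, control 6 and PPHN 11 were highest for 25 entries, and control 4, PPHN 8 and PPHN 11 for 18. None of the 12 others had a sheep name in its entry, and 10 of them had a single name. A step of over 2-fold between the third and the fourth library, a limit chosen after the values were seen, was found in 11 entries of the table, and 8 of these had PPHN 8, PPHN 11 and PPHN 12 on top. The 8 were gga-miR-1692, ssc-miR-1285, cgr-miR-1285, hsa-miR-4448, hsa-miR-7641, hhi-miR-7641, mmu-miR-5112 and prd-miR-5960-5p. The steps of bta-miR-2340 and hsa-miR-1303 were just under this limit.

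Among these, mmu-miR-5112 had the widest step. It stood at 0, 58.1, 0, 2.83, 66.3 and 48.2 CPM in PPHN 7 to 12, and between 0.987 and 7.14 CPM in control. The entry prd-miR-5960-5p stood at 0.121, 219, 0, 35.8, 180 and 173 CPM in PPHN 7 to 12, and between 7.34 and 34.8 CPM in control. Both were at or near 0 in PPHN 7 and PPHN 9, where the 4 entries were at control levels. The second miR-7641 entry, hhi-miR-7641, was abundant, at 295, 7895, 23.9, 772, 8650 and 7331 CPM in PPHN 7 to 12, and between 256 and 2793 CPM in control.

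The set also held hsa-miR-34c-5p, a p53-induced miRNA with names of 13 species. It stood at 59.9 to 137 CPM in PPHN 8, PPHN 11 and PPHN 12 and at 3.33 to 35.6 CPM in the other libraries, a step of 1.68-fold. The entry cgr-miR-874 had a step of 1.02-fold, sha-miR-716b of 1.12-fold and bta-miR-2285af of 1.16-fold, so in these 3 there was almost no step.

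**Figure D4:**
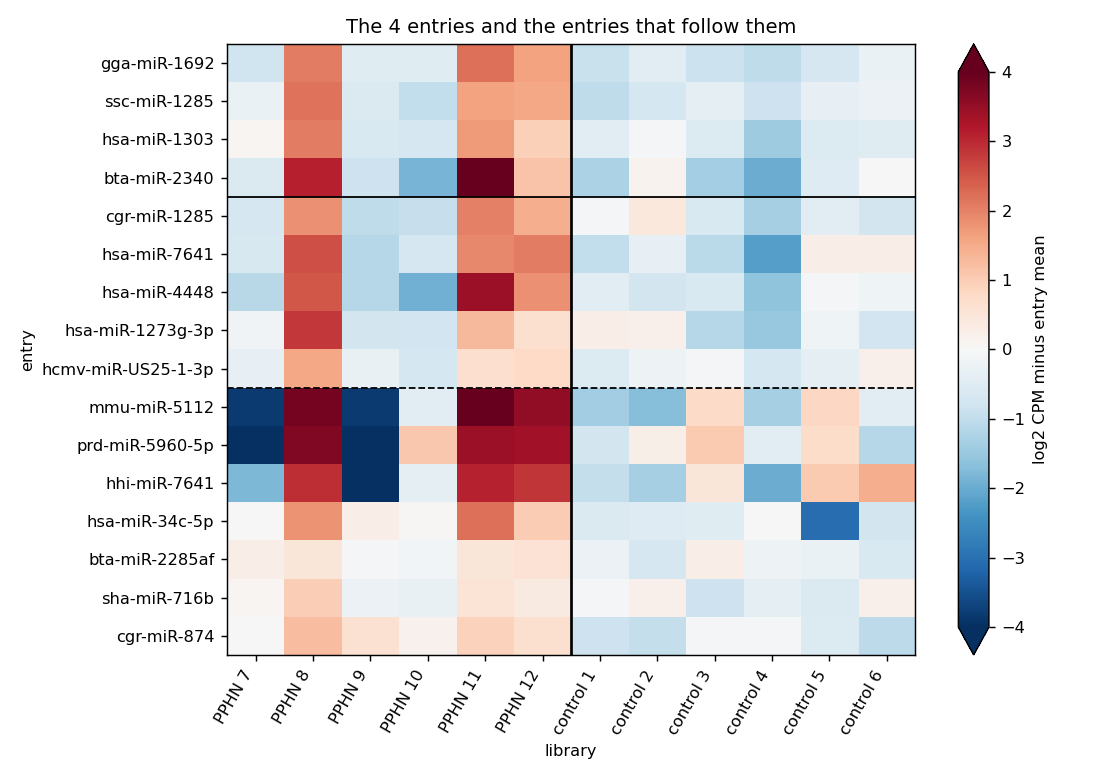
Log2 CPM minus the mean of each entry (colour, ending at 4 in either direction) for the 4 entries (top), the 5 nearest entries (middle) and the other entries with the same 3 highest libraries (bottom), over 6 PPHN and 6 control libraries. PPHN 8, PPHN 11 and PPHN 12 are red in every row, and mmu-miR-5112 and prd-miR-5960-5p are also deep blue in PPHN 7 and PPHN 9.

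Other groups of names that stand for pieces of longer RNAs were compared with the 4. Of 9 listed repeat-derived names, 3 were found, in 4 entries: ssc-miR-1285, hsa-miR-1303, cgr-miR-1285 and hsa-miR-1273g-3p. All 4 were higher in PPHN, with a median log2 fold change of 1.50 against -0.08 over all tested entries. Of the 4, 2 are among the entries chosen for this contrast, so the list is no separate support. Their summed level was 173, 888, 119, 109, 604 and 434 CPM in PPHN 7 to 12, and 80.8 to 181 CPM in control.

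The listed tRNA pieces, 3 of 8 names found, did not show this pattern. Pieces of tRNA under other names were not looked for, since no sequence was used. Their 3 entries, cgr-miR-1260, bta-miR-2478 and hsa-miR-4454, summed to 3111, 6720, 3608, 5868, 2148 and 6049 CPM in PPHN 7 to 12, and to 3856 to 6741 CPM in control. PPHN 11, where bta-miR-2340 and gga-miR-1692 were highest, had the lowest sum of all libraries. Of 6 listed names of ribosomal RNA pieces, 1 was found. This entry, bta-miR-2904, is known to match 28S ribosomal RNA. It stood at 16.6 to 66.8 CPM in PPHN and 9.46 to 313 CPM in control, with its highest level in control 6. The entry hsa-miR-1246, known to match U2 small nuclear RNA, stood at 38.3, 49.4, 22.8, 13.9, 108 and 60.7 CPM in PPHN 7 to 12, and at 10.3 to 268 CPM in control. Within PPHN its 3 highest libraries were thus the same as for the 4, while its highest library of all was control 6. The 2 miR-664 entries, whose precursor lies in a small nucleolar RNA, summed to 9.34 to 33.6 CPM in PPHN and 9.15 to 42.0 CPM in control. None of these 7 entries had the same 3 highest libraries as the 4. Of the 11 list entries named in this and the preceding paragraph, 0 passed the edgeR threshold (0% over all entries). The ribosomal list did not hold miR-7641, described above as matching a ribosomal RNA, and both of its entries had PPHN 8, PPHN 11 and PPHN 12 on top. There hsa-miR-7641 stood at 55.4 to 87.5 CPM, against at most 17.7 CPM elsewhere. For hhi-miR-7641 the values were 7331 to 8650 CPM and at most 2793 CPM. Both were named for their profile, so whether ribosomal RNA pieces as a group follow the 4 was not tested.

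Depth and cell type markers also differed between these libraries. PPHN 8 and PPHN 11 had the lowest total counts, 2655849 and 2250077, while PPHN 12 had 4819828 and control 1 and control 2 had 4697471 and 4101316. Of the controls, control 2 had the lowest total and the highest levels of bta-miR-2340 (6626 CPM) and hsa-miR-1303 (76.4 CPM). The endothelial miR-126, with 1 of 1 listed marker found in 6 entries, summed to 187 to 64404 CPM in PPHN and 172 to 102467 CPM in control. It was low in PPHN 8 (203 CPM), PPHN 11 (187 CPM) and control 2 (172 CPM), and high in PPHN 12 (29654 CPM). In control 2, gga-miR-1692 was at 45.6 CPM and ssc-miR-1285 at 33.6 CPM, both within the range of the other controls.

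The smooth muscle markers miR-143 and miR-145, 2 of 4 listed, were found in 4 entries and summed to 2158 to 253917 CPM in PPHN and 2212 to 301464 CPM in control. They were low in PPHN 8 and PPHN 11 (2158 and 2389 CPM) and high in PPHN 12 (170959 CPM). The entry oar-miR-133 did not match the listed name miR-133a and is not in this sum. Of the fibroblast markers, 4 of 4 were found, in 10 entries that summed to 496 to 10030 CPM in PPHN and 3505 to 20301 CPM in control, with PPHN 11 and PPHN 8 lowest and PPHN 12 highest among PPHN. Of the blood markers, 2 of 5 were found (miR-451 and miR-486), at 15.4 to 203 CPM in PPHN and 69.0 to 900.4 CPM in control, and the lowest sums were those of PPHN 8, PPHN 11 and PPHN 12. Of the epithelial markers, 2 of 7 were found (miR-200b and miR-203), at 34.5 to 159 CPM in PPHN and 1.44 to 402 CPM in control. Control 4 held the 402 CPM, and the other controls lay between 1.44 and 10.2 CPM. Among PPHN, PPHN 11 (159 CPM) and PPHN 8 (119 CPM) were highest, while PPHN 12 was at 37.6 CPM. Of the neuronal markers, 2 of 3 were found (miR-9 and miR-128), at 95.7 to 137 CPM in PPHN and 99.2 to 149 CPM in control. No marker entry was at 0 in every library, and at 0 in PPHN 8 or PPHN 11 were only entries of miR-126, miR-145 and miR-214. The part of depth, RNA quality or cell type in the levels of the 4 was not tested. In bulk samples such as these, more cells carrying an RNA and more of it per cell cannot be told apart.

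**Figure D5:**
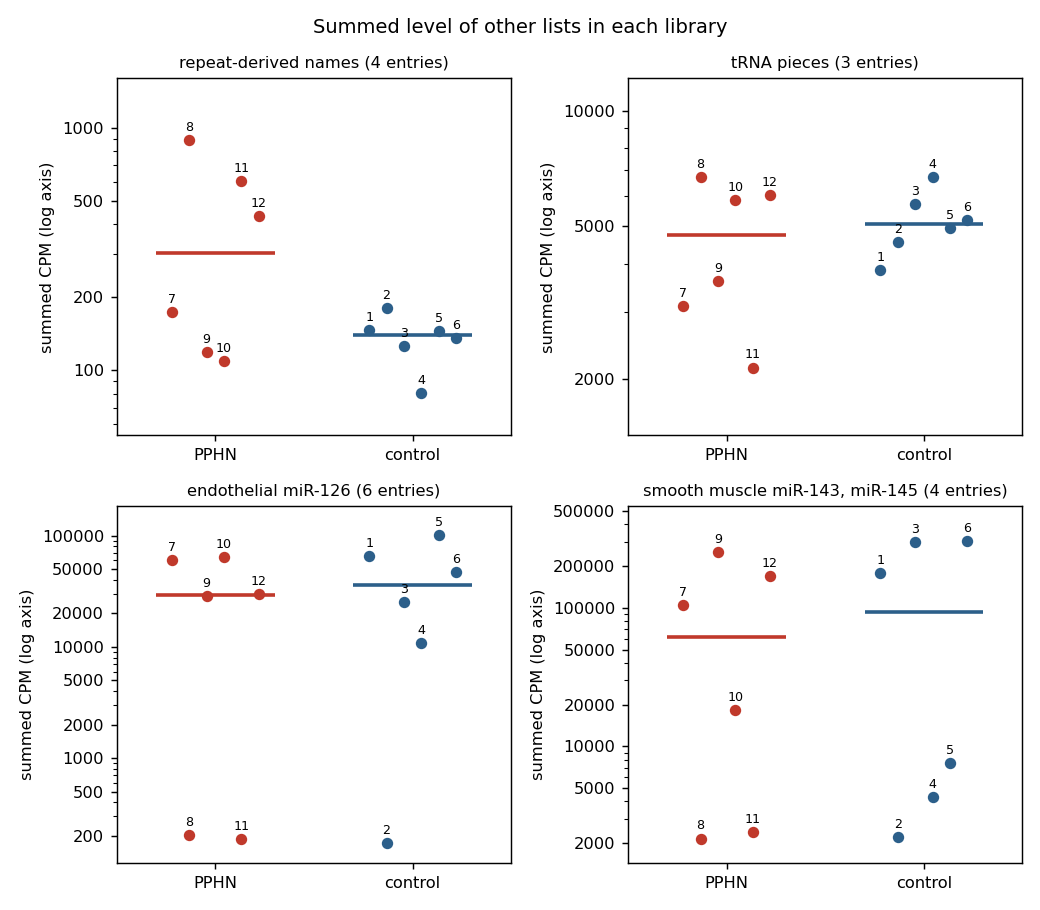
Summed CPM on log axes of 4 lists of entries, with 1 numbered point per library and the group median as a line. The repeat-derived names are highest in PPHN 8, PPHN 11 and PPHN 12 (888, 604 and 434 CPM), and the listed tRNA pieces are not. Of the 4 repeat-derived entries, ssc-miR-1285 and hsa-miR-1303 were chosen for being high in these libraries, so this panel is no separate support. The miR-126 and smooth muscle sums are low in PPHN 8 and PPHN 11 but not in PPHN 12.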

How the data were processed

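Per the file headers, the deposited values are raw read counts, with 1 row per miRNA entry and 1 column per library. Per the submitters' processing notes, the tools included Trim Galore 0.2.5 and Bowtie 1.1.1. Their roles, the genome build and the miRNA reference are not given in the sources. The authors also deposited p-values, q-values and log2 fold changes of their own comparisons, per the file headers.

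The counts were scaled with TMM after filterByExpr, which kept 468 of 470 entries, and the groups were compared by the robust quasi-likelihood test of edgeR 4.0.16 (R 4.3.3), with Benjamini-Hochberg adjustment over all tested entries. DESeq2 1.42.0 was run beside it. The fit was tested on simulated data. Log2 CPM used a prior count of 2. Correlations used exact permutation of pairings in Python 3.11.15. No 2 libraries were duplicates: chi-square per degree of freedom was at least 366 for each pair. The 4 entries and all lists were chosen with earlier results of these data known. Entries named besides the 4 are the 5 nearest in profile and up to 10 others with the same 3 highest libraries, taken by the step below the third, and any named outside this rule (cgr-miR-874, sha-miR-716b, marker and fragment entries) were chosen after their values were seen.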

Additional observations from a re-analysis of the deposited data

Results flagged for a closer look

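For each of 14 entries named above, both groups of 6 libraries were checked for a library far from the others by Dixon's test, of which chance flags about 5%. Of these 28 groups, 1 was picked out: hsa-miR-1273g-3p in PPHN 8, at 227 CPM, where the next PPHN library was at 78.4 CPM and the lowest at 18.8 CPM. None of the 4 entries was picked out, since their high levels are shared by 3 PPHN libraries.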

How the results depend on the processing

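The log2 fold changes of the 4 entries stayed positive under every alternative tried: RLE, upper-quartile and library-total scaling, DESeq2, all entries kept, only entries with 10 CPM or more in 6 libraries, leaving out single libraries, and, chosen after seeing the data, leaving the 4 out of the scaling. The 4 were chosen for being high in PPHN 8, PPHN 11 and PPHN 12, so this sign was largely set in advance and nothing is read from it. Leaving out single libraries gave 1.55 to 2.08 for gga-miR-1692, 1.24 to 1.81 for ssc-miR-1285, 1.11 to 1.67 for hsa-miR-1303 and 1.93 to 3.16 for bta-miR-2340. Without control 2, PPHN 8 and PPHN 11 together, bta-miR-2340 moved to 0.71. This setting leaves out its highest libraries, PPHN 11 (94769 CPM) and PPHN 8 (51855 CPM). Why those libraries are high was not tested. The count of called entries was 12 with DESeq2 and 0 to 1 without single libraries (1 without PPHN 8). At an unadjusted p under 0.05 there were 32 to 59 entries without single libraries (32 without PPHN 11) and 27 without the 3 libraries together, where fewer samples were tested. The share of these that was higher in PPHN moved from 23 of 49 to 14 of 46 with library totals and 32 of 46 with the 10 CPM filter. The median log2 fold change of all entries was -0.08 with TMM, -0.17 with library totals and 0.04 with the 10 CPM filter. The r of gga-miR-1692 with bta-miR-2340 over the controls lost its call with library totals (0.95) and over the 9 libraries (0.62). It also lost it over 4 controls (0.97), where so few pairings exist that passing was hardly possible, so nothing is read from that loss. With a rank distance 4 of the 5 nearest entries were shared, and with library totals all 5. No paired analysis was possible because the labels give no pairing of libraries between the groups. Depth limits entries with few counts, such as hcmv-miR-US25-1-3p (21 to 86 per library), more than the 4.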
